A study of Mus musculus with 27 samples.

Results

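The genes described here are 34 listed genes of glucose uptake, glycolysis, lactate production and export, pyruvate entry into mitochondria and the pentose phosphate pathway, together with the regulator Hif1a. They were found by symbol among the 35604 genes of the deposited table, and all 34 were present. Polyadenylated RNA was measured in naive B cells isolated from spleens of wild-type mice, in 27 libraries that form 9 groups of 3. The naive group was not cultured (0 h). The other 8 groups were kept in culture for 6 h or 24 h. All of them received 1 µg/mL of anti-CD40, an antibody (clone HM40-3) that stimulates the receptor used by helper T cells, either alone, with IL-4 at 12.5 ng/mL, with IL-21 at 50 ng/mL, or with both cytokines. Below, the IL-4 group is the one with anti-CD40 and IL-4, and comparisons that use the same group share those libraries and are not independent. The series asks what IL-21 does to B cells by themselves and in which context. Every cultured group received anti-CD40, so that in comparisons with naive cells culture and stimulation cannot be told apart. The sources used here give no strain, age or sex, and do not say whether replicates came from separate animals or cultures. The p-values therefore measure the spread between these libraries, which may be technical.

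Glycolysis splits glucose into pyruvate and yields ATP, and the pentose phosphate pathway branches from it to supply NADPH and ribose for nucleotides. Pyruvate either becomes lactate, which leaves through monocarboxylate transporters, or enters mitochondria through the carrier Mpc1 and Mpc2 to be oxidised by pyruvate dehydrogenase. Pyruvate dehydrogenase kinases such as Pdk1 and Pdk3 switch that last enzyme off, and the transcription factor HIF-1α (Hif1a) is known to drive many genes of the pathway. Resting B cells are small and metabolically quiet, and activated B cells are known to take up more glucose as they grow and divide.

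The label of the cells was checked against marker genes. All 8 B cell markers were above 0 in all 27 libraries, with a summed level of 1422 to 8526 TPM (a value scaled to transcript length and library total, so that levels of different genes can be compared). Summed markers reached at most 6.30 TPM for T cells, 4.09 for NK cells, 0.393 for neutrophils, 10.6 for dendritic cells and 39.7 for macrophages and monocytes. Markers of erythroid cells and platelets summed to 1012 to 1797 TPM in the naive libraries, 103 to 245 TPM at 6 h and 11.3 to 47.9 TPM at 24 h. The number of reads behind a value is not known from TPM. In such bulk samples a lower share of cells with a transcript and less of it per cell cannot be told apart. In 4 libraries the share of mitochondrially encoded transcripts was well below that of the rest of their group. It was 5.50% in naive replicate 1, against 12.7% and 13.5% in replicates 2 and 3, and 7.89% in replicate 1 of the IL-4 group at 24 h, against 11.6% and 10.97% there. At 6 h it was 6.91% in replicate 3 of the IL-4 group, against 10.2% and 10.6%, and 7.27% in replicate 3 of the IL-21 group, against 10.9% and 10.2%. The first pair was left out together as an alternative, and the 6 h pair only one at a time.

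Replicate 1 of the IL-4 group at 24 h also stood apart in the listed genes themselves. Their summed level was 5123 TPM in that library, and 2892 and 2202 TPM in replicates 2 and 3. Of 25 members with a median of at least 5 TPM over all libraries, 23 were highest in replicate 1. The ratio of replicate 1 to the mean of the other 2 had a median of 2.14 and ran from 0.644 for Mpc1 to 3.43 for Gpi1. Counts of called members that use this group are also given without that library, but counts of the further pathway genes are not.

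Upstream sequences are shown for 6 members on which the results turn: Ldha, Slc16a1 and Tpi1, for which the effect of IL-21 depended on IL-4, Pgam1 and Pfkp, which rose with IL-21 at 24 h, and Pfkfb3, which moved the opposite way. Each run is the 250 bases before a transcription start in RefSeq (build GRCm38.p6), 5′ to 3′ on the gene's strand. Capitals mark ACGTG on either strand, the core letters of HIF-1 and E-box sites, and the spaced palindromes TTCNNNGAA and TTCNNNNGAA of the STAT factors that IL-21 and IL-4 act through. The runs lie at chr7:46845554-46845803 (plus strand, Ldha), chr3:104638414-104638663 (plus strand, Slc16a1), chr6:124814159-124814408 (minus strand, Tpi1), chr19:41911621-41911870 (plus strand, Pgam1), chr13:6648772-6649021 (minus strand, Pfkp) and chr2:11553930-11554179 (minus strand, Pfkfb3). Ldha and Pfkfb3 each have 2 windows in RefSeq, of which the first listed is shown.
Ldha: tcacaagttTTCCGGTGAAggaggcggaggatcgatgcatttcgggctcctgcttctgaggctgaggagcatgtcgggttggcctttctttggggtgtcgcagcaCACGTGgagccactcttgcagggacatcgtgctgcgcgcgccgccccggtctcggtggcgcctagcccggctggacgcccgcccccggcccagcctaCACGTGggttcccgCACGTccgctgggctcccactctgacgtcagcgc
Slc16a1: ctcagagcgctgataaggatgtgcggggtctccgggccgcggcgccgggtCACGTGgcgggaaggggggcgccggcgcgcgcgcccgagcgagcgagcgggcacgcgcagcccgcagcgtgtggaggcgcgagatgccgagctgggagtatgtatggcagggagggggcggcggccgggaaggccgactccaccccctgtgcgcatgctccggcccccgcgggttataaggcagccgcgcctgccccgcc
Tpi1: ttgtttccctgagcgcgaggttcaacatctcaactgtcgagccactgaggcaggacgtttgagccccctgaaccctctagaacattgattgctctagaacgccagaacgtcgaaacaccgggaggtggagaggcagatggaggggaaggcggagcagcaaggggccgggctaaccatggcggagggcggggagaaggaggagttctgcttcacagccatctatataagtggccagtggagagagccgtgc
Pgam1: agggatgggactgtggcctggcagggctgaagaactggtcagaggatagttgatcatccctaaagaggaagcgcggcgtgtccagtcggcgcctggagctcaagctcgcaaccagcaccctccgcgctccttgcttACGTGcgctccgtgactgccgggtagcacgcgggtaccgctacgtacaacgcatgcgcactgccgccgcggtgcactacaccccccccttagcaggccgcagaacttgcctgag
Pfkp: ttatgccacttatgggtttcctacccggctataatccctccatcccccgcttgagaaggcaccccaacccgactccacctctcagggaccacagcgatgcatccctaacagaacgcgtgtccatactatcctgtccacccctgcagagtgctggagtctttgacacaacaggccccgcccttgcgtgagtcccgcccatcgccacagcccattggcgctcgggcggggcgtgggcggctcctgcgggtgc
Pfkfb3: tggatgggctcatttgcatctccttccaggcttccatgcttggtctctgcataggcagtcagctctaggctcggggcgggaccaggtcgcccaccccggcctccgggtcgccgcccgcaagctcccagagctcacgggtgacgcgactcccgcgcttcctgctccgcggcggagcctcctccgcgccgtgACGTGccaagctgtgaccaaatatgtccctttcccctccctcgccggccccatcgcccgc

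The Ldha run holds 5 matches to ACGTG, 4 of them as 2 palindromes CACGTG read on both strands, and a TTCNNNNGAA match. Slc16a1 holds a CACGTG palindrome, Pgam1 and Pfkfb3 hold 1 ACGTG each, and the Tpi1 and Pfkp runs hold none of these letters. RefSeq windows of 300 bases (250 before to 50 after a start) were found for 33 of the 34 members, with 48 windows in all, and Slc2a3 had none. ACGTG on either strand was in 21 of the 48 windows (43.8%), at 18 of the 33 genes, and in 19.6% of all 32851 windows. CACGTG, which contains ACGTG, was in 5 member windows (10.4%) and 7.15% of all. TTCNNNGAA was in 2 member windows (4.17%) and 8.30% of all, and TTCNNNNGAA in 4 (8.33%) and 6.95% of all. A match describes letters in the window and is not evidence of binding.

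Levels of the members spanned more than 3 orders of magnitude. Gapdh was the highest, with a median of 1130 TPM over the 27 libraries (512 to 2274), followed by Mpc1 at 401, Gpi1 at 298, Tkt at 237, Taldo1 at 194, Pgam1 at 175 and Tpi1 at 126 TPM. Ldha had a median of 53.0, Pkm 41.3, Hif1a 40.8, Slc16a1 17.3 and the glucose transporter Slc2a1 11.9 TPM. Among paired genes of the same step, Ldha rather than Ldhb, and Slc16a1 rather than Slc16a3, carried the signal: Ldhb was listed at 0 in 24 of 27 libraries and did not exceed 0.400 TPM, and Slc16a3 was listed at 0 in 15 and did not exceed 0.614 TPM. These last 2 members were not tested, because a gene had to reach 1 TPM in at least 3 libraries. The other 32 were tested among 12147 genes. G6pdx (at most 1.61 TPM) reached 1 TPM in 3 libraries and Pgk1 (at most 1.84 TPM) in 4, so little rests on either of them here.

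Pgk1, phosphoglycerate kinase, is a special case. It was listed at 0 to 1.84 TPM, while its processed pseudogene Gm5537, identical to the Pgk1 transcript over 1252 aligned bases, was listed at a mean of 102 TPM, and Pgk1-rs7, identical over 1255 bases, at 9.21 TPM. Reads that lie within the aligned stretch cannot be told apart, which is a part of the 1825 bases of the Pgk1 transcript. The copies held 97.9% to 100% of the sum of Pgk1 and its copies. That sum was 29.2 ± 23.9 TPM (SD, n = 3) in naive cells, 79.4 ± 5.17 after 6 h and 106 ± 5.20 after 24 h with anti-CD40 alone, 210 ± 40.4 with IL-4, 161 ± 13.6 with IL-21 and 146 ± 20.5 with both at 24 h. Summed with its copies, Pgk1 was called higher than naive at 6 h (1.75 ± 0.35 on the log2 scale, adjusted p = 0.000492) and 24 h (2.16 ± 0.35, adjusted p = 8.07e-05), and higher with IL-4 at 24 h (0.96 ± 0.35, adjusted p = 0.0423). In the IL-4 group at 24 h the copies were lowest in replicate 1, where most members were highest. Copies also held 13.7% to 26.0% of the summed signal of Gapdh and 9.59% to 32.0% of that of Eno1, and at most 10.98% for Mpc1. Adding the copies changed no call of these 3 genes.

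**Figure D1:**
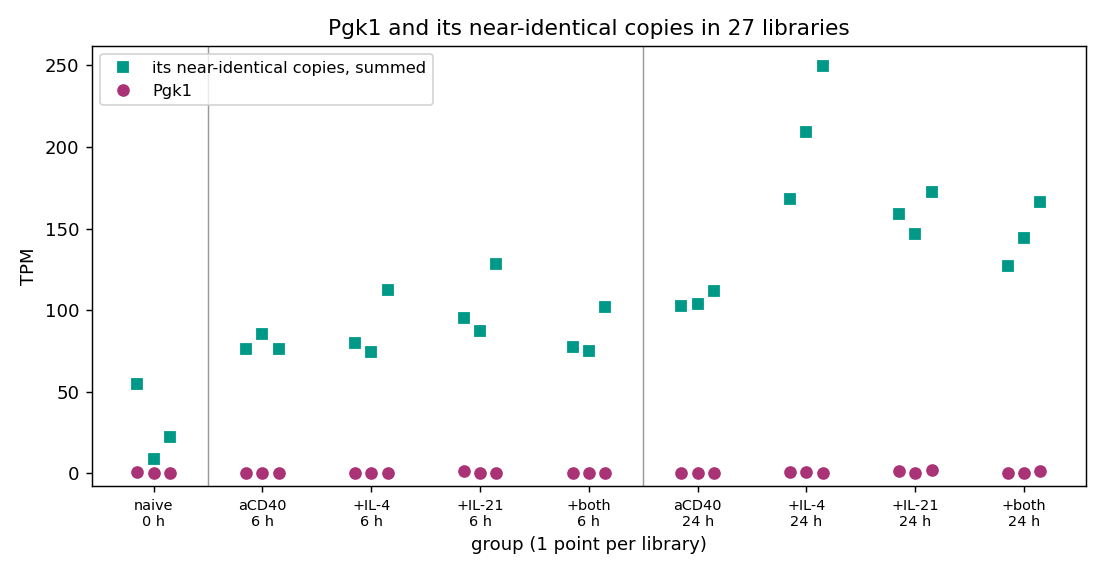
TPM of Pgk1 (circles) and of its near-identical copies summed (squares) in each of 27 libraries, by group on the x axis. Pgk1 stays at or under 1.84 TPM in every library while its copies range from 9.06 to 249 TPM.

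Differences below are in log2(TPM + 1) with their standard error, from limma fitted to all 27 libraries with 18 residual degrees of freedom, and a gene was called at a Benjamini-Hochberg adjusted p below 0.05 over all 12147 genes. The added 1 TPM understates changes of genes with low levels.

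Anti-CD40 alone against naive cells, 6 h. Tpi1, Gapdh, Pgam1 and Pkm of lower glycolysis, Ldha and Slc16a1 of the lactate step and both subunits of the mitochondrial pyruvate carrier rose within 6 h. Of the 32 tested members, 14 rose and 2 fell, against 16.6% and 13.3% of all genes (29.9% in either direction). The members' median difference was 0.52, against 0.06 over all genes. Called higher were 4 of 8 members of lower glycolysis (of the other 4, Aldoc fell and Aldoa, Eno1 and Pgk1 were not called) and both lactate members. So were 4 of 6 at pyruvate and mitochondrial entry, 3 of 6 in the pentose phosphate pathway and 1 of 7 at phosphorylation and entry (Pfkl). The entry step also holds the kinases Pdk1 and Pdk3, which switch pyruvate dehydrogenase off, so rises counted there do not all act in the same direction. Neither glucose transporter was called, although Slc2a1 stood at 22.9, 14.5 and 12.1 TPM in the naive libraries and 11.9, 6.79 and 5.01 TPM at 6 h (-1.003 ± 0.40, adjusted p = 0.0630). The count of 16 was 10 without naive replicate 3, 10 without replicate 1 and 9 without replicate 2 of the stimulated group. In these fits 24.7%, 25.4% and 25.1% of all genes were called.

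Mpc1, a subunit of the mitochondrial pyruvate carrier, was the member with the largest difference. It stood at 117, 176 and 171 TPM in naive replicates 1 to 3 and at 495, 508 and 501 TPM after 6 h, a difference of 1.71 ± 0.16 (adjusted p = 2.83e-08). Its partner subunit Mpc2 rose by 0.90 ± 0.14. Pkm, pyruvate kinase, went from 15.4, 10.7 and 8.38 TPM to 34.5, 29.4 and 27.8 TPM (1.37 ± 0.25, adjusted p = 0.000192). Slc16a1, the lactate exporter MCT1, went from 5.51, 5.56 and 6.32 TPM to 17.4, 17.3 and 11.5 TPM (1.25 ± 0.18, adjusted p = 1.23e-05). For these 3 genes every stimulated library lay above every naive library.

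Tpi1, triose phosphate isomerase, was at 79.5, 47.4 and 47.9 TPM in naive cells and 138, 126 and 126 TPM at 6 h (1.19 ± 0.17, adjusted p = 1.30e-05). Pgam1, phosphoglycerate mutase, was at 72.6, 54.5 and 51.5 TPM and then at 117, 116 and 134 TPM (1.04 ± 0.30, adjusted p = 0.0114). Pgd, which makes NADPH in the oxidative branch of the pentose phosphate pathway, was at 46.7, 28.8 and 22.5 TPM and then at 71.1, 60.03 and 66.3 TPM (1.05 ± 0.32, adjusted p = 0.0162). The groups did not overlap for any of the 3, but the call of Pgd was lost without naive replicate 2 or 3 or stimulated replicate 1. The members that fell were Aldoc (-1.02 ± 0.31), the low-level aldolase C, and Pdk1 (-0.82 ± 0.26), whose groups overlapped and whose call was lost without naive replicate 1 or stimulated replicate 1 or 2 (17.8, 7.28 and 9.73 against 5.52, 4.24 and 7.78 TPM).

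Anti-CD40 alone against naive cells, 24 h. At 24 h, 10 members were higher than in naive cells and 0 lower, against 18.9% and 7.85% of all genes (26.8% in either direction). By an unadjusted p below 0.05, 17 members differed. No share of all genes is given at that threshold, here or below, so counts by unadjusted p are not results about the members. The members' median was 0.56, against 0.25 over all genes. Hk1, the hexokinase that traps glucose in the cell, was at 3.98, 0.0844 and 0 TPM in naive cells and at 9.52, 9.10 and 17.0 TPM at 24 h (2.82 ± 0.60, adjusted p = 0.00124). Aldoa, the main aldolase, was at 54.6, 10.9 and 10.5 TPM and then at 70.4, 82.5 and 92.1 TPM (2.06 ± 0.47, adjusted p = 0.00225). In both genes naive replicate 1, the library with few mitochondrial transcripts, was the highest of its group. Pfkfb3, whose product makes the strongest activator of phosphofructokinase, went from 12.3, 8.40 and 9.18 TPM to 22.8, 20.3 and 26.4 TPM (1.15 ± 0.25, adjusted p = 0.00169).

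Pkm remained higher than naive at 24 h, at 32.3, 28.4 and 41.3 TPM (1.51 ± 0.25), as did Mpc1, at 370, 403 and 374 TPM (1.32 ± 0.16). Tpi1 (0.92 ± 0.17), Gapdh (0.85 ± 0.27), Pdha1 (0.60 ± 0.14), Pdhb (0.56 ± 0.14) and Slc16a1 (0.52 ± 0.18) were the other called rises, and the last 3 were not called after median-of-ratios rescaling. Ldha, lactate dehydrogenase A, was called at 6 h (0.89 ± 0.27) but stood at 0.56 ± 0.27 at 24 h (adjusted p = 0.131). Median-of-ratios rescaling sets the median gene to no change between libraries and shifted the all-gene median from 0.25 to 0.02. With it, the calls were 7 higher and 3 lower, where 29.9% of all genes were called. Without naive replicate 1 and replicate 1 of the IL-4 group at 24 h they were 18 higher and 0 lower, where 38.6% of all genes were called. The erythroid and platelet markers differed between naive and cultured libraries as given above, and macrophage markers summed to 25.8 to 39.7 TPM in naive libraries and at most 8.32 TPM in the cultured ones, with Lyz2 the main one. Their part in the differences from naive cells was not tested.

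Anti-CD40 alone, 24 h against 6 h. Between 6 h and 24 h Hk1, Pfkfb3, Aldoc and Pdk1 rose, and Slc16a1, Mpc2 and G6pdx fell. Of the 32 members 4 rose and 3 fell, against 16.1% and 8.17% of all genes (24.3% in either direction), so that members were called about as often as genes in general. Hk1 went from 0.0430, 1.47 and 3.18 TPM to 9.52, 9.10 and 17.0 TPM (2.49 ± 0.60, adjusted p = 0.00407). Aldoc went from 1.83, 0.897 and 2.98 TPM to 6.53, 6.88 and 9.12 TPM (1.60 ± 0.31, adjusted p = 0.000535). Pfkfb3 went from 8.08, 8.76 and 9.72 TPM to the 24 h values above (1.29 ± 0.25, adjusted p = 0.000690). Pdk1, a kinase that shuts pyruvate dehydrogenase, went from 5.52, 4.24 and 7.78 TPM to 13.0, 12.8 and 17.1 TPM (1.18 ± 0.26, adjusted p = 0.00209). The 24 h values lay within the naive range (7.28 to 17.8 TPM) only through naive replicate 1, without which the fall at 6 h was not called. The members that fell were Mpc2 (-0.87 ± 0.14), Slc16a1 (-0.73 ± 0.18) and G6pdx, which is near 0. After median-of-ratios rescaling the split was 6 higher and 9 lower, where 30.9% of all genes were called.

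**Figure D2:**
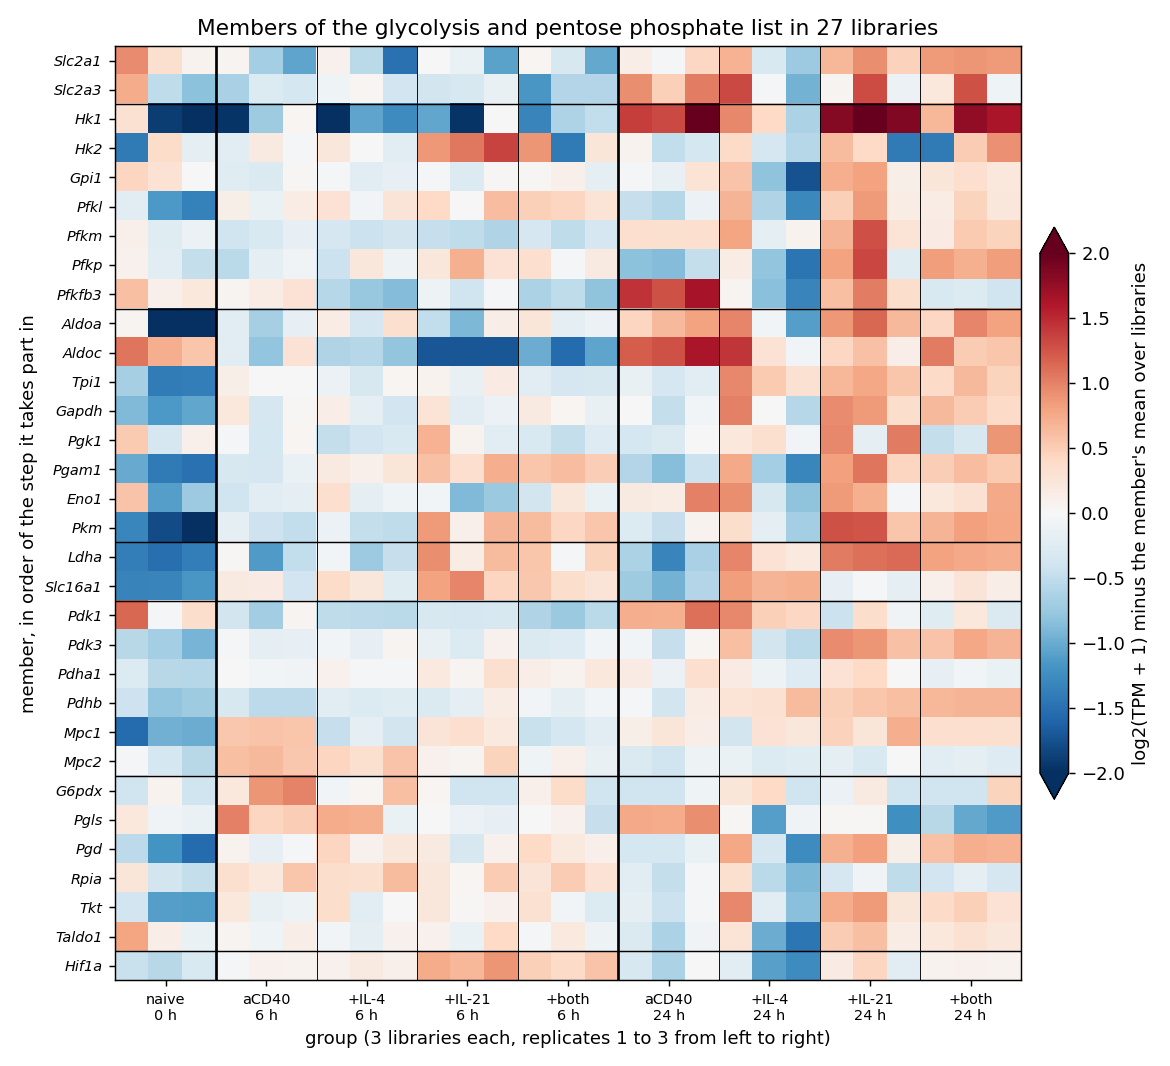
Row-centred log2(TPM + 1) of the 32 tested members (rows, grouped by step) in 27 libraries (columns, 3 per group), red above and blue below the member's mean. Tpi1, Pgam1, Pkm, Ldha and Slc16a1 are blue in the 3 naive libraries, and replicate 1 of the IL-4 group at 24 h is redder than its other 2 libraries for most members.

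IL-21 added to anti-CD40, 6 h. Lactate dehydrogenase A, the lactate exporter, pyruvate kinase and Hif1a rose within 6 h of IL-21. These 4 members rose and 2 fell, against 7.43% and 4.68% of all genes (12.1% in either direction), and the median over members was 0.05, against 0.10 over all genes. Ldha stood at 48.5, 21.1 and 33.7 TPM with anti-CD40 alone and at 91.3, 53.0 and 74.5 TPM with IL-21 (1.10 ± 0.27, adjusted p = 0.00788). Pkm rose by 0.90 ± 0.25, Slc16a1 by 0.76 ± 0.18 and Hif1a by 0.72 ± 0.20. Hif1a stood at 38.0, 41.0 and 40.6 TPM without and 65.3, 61.8 and 72.2 TPM with IL-21, and that was its highest group of the 9. Aldoc was listed at 0 in all 3 libraries with IL-21 and at 1.83, 0.897 and 2.98 TPM without, so no fold is given, and the other fall was G6pdx. In the same libraries B cell markers summed to 1422 to 2338 TPM with IL-21 and 2961 to 5130 TPM without, and T cell markers to 4.78 to 6.30 TPM and 1.38 to 3.57 TPM, with no overlap. Of the 7 T cell markers, only Trac and Cd3e were above 0 in all 27 libraries, and the part of these differences in the result was not tested. The count of 6 was 2 without replicate 2 or replicate 3 of the group with anti-CD40 alone and 3 without replicate 1 of the IL-21 group. In these fits 9.04%, 9.31% and 10.1% of all genes were called. The call of Ldha was lost without replicate 2 of the first group (0.80) or replicate 1 of the second (0.93), and the calls of Pkm, Slc16a1 and Hif1a were lost without 4, 2 and 5 of the 6 libraries in turn. After median-of-ratios rescaling 5 were higher and 4 lower, where 15.6% of all genes were called.

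IL-21 added to anti-CD40, 24 h. At 24 h Ldha, Pgam1, Pfkp and Pkm were the members with the largest rises. Called higher were 10 of the 32 members and called lower 4, against 17.8% and 6.33% of all genes (24.2% in either direction), with a median of 0.50 over members and 0.23 over all genes. The rises were 1 of 7 at phosphorylation and entry (Pfkp), 4 of 8 in lower glycolysis (Tpi1, Gapdh, Pgam1 and Pkm), both at the lactate step (Ldha and Slc16a1), 2 of 6 at pyruvate entry (Pdk3 and Pdhb) and 1 of 6 in the pentose phosphate pathway (Tkt). Of these, Pfkp, Tpi1, Pgam1, Pkm, Ldha and Pdk3 kept their call under every alternative run, while Slc16a1 and Pdhb lost it after median-of-ratios rescaling, Gapdh without replicate 2 of the first group or replicate 1 or 2 of the second, and Tkt (adjusted p = 0.0484) under most.

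Ldha had the largest difference. It stood at 30.4, 18.4 and 29.9 TPM with anti-CD40 alone and at 99.2, 103 and 106 TPM with IL-21 (1.96 ± 0.27, adjusted p = 1.13e-05). Pgam1 stood at 98.0, 80.9 and 109 TPM without and 260, 310 and 197 TPM with IL-21 (1.39 ± 0.30, adjusted p = 0.00180). Pfkp, the platelet-type phosphofructokinase, stood at 10.7, 10.4 and 13.9 TPM without and 35.1, 51.1 and 16.5 TPM with IL-21 (1.35 ± 0.34, adjusted p = 0.00533). The libraries did not overlap in any of the 3 genes, though the third IL-21 library was well under the other two for Pfkp. Pfkp shares 748 bases with Pitrm1 on the opposite strand, and the sources used here do not say whether counting used the strand. Pitrm1 was not called (0.11 ± 0.30, adjusted p = 0.827).

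Pkm stood at 32.3, 28.4 and 41.3 TPM without and 96.2, 95.8 and 58.2 TPM with IL-21 (1.25 ± 0.25, adjusted p = 0.000881). Pdk3 stood at 20.5, 15.2 and 22.0 TPM without and 42.0, 40.3 and 32.6 TPM with IL-21 (0.96 ± 0.22, adjusted p = 0.00219), while Pdk1, the other kinase of pyruvate dehydrogenase, fell from 13.0, 12.8 and 17.1 TPM to 5.28, 9.74 and 7.01 TPM (-0.90 ± 0.26, adjusted p = 0.0149). These kinases of the same enzyme moved in opposite directions. Pgls, the lactonase of the oxidative pentose phosphate branch, fell from 10.6, 10.5 and 12.1 TPM to 5.95, 5.98 and 1.93 TPM (-1.21 ± 0.33, adjusted p = 0.00920), a call that was lost without the third IL-21 library (-0.79). Aldoc (-0.99 ± 0.31) and Pfkfb3 (-0.79 ± 0.25) also fell. Hif1a stood at 0.44 ± 0.20 (adjusted p = 0.121). IL-21 libraries at 24 h had 6.56% to 8.14% mitochondrial transcripts and those with anti-CD40 alone 8.51% to 11.8%, and T cell markers summed to 1.93 to 5.02 TPM and 1.23 to 1.55 TPM. Ribosomal protein transcripts made up 18.2% to 23.7% with IL-21 and 24.8% to 29.0% with anti-CD40 alone. Rescaled without mitochondrial, ribosomal protein and pseudogene transcripts, 8 members were higher and 4 lower, with 24.5% of all genes called. The part of each of these in the differences was not tested.

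The change of the IL-21 effect between 6 h and 24 h was tested directly. It was called for Tpi1, where it was 0.90 ± 0.25 (adjusted p = 0.0374), and for none of the other members, against 3.1% and 1.34% of all genes (4.44% in either direction). At an unadjusted p below 0.05 there were 8. Tpi1 stood at 133, 115 and 143 TPM with IL-21 at 6 h, against 138, 126 and 126 TPM without it, and at 202, 218 and 188 TPM with IL-21 at 24 h, against 115, 101 and 108 TPM. This call was lost when any of 10 of the 12 libraries was left out. For Ldha the change was 0.86 ± 0.38 (adjusted p = 0.266).

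**Figure D3:**
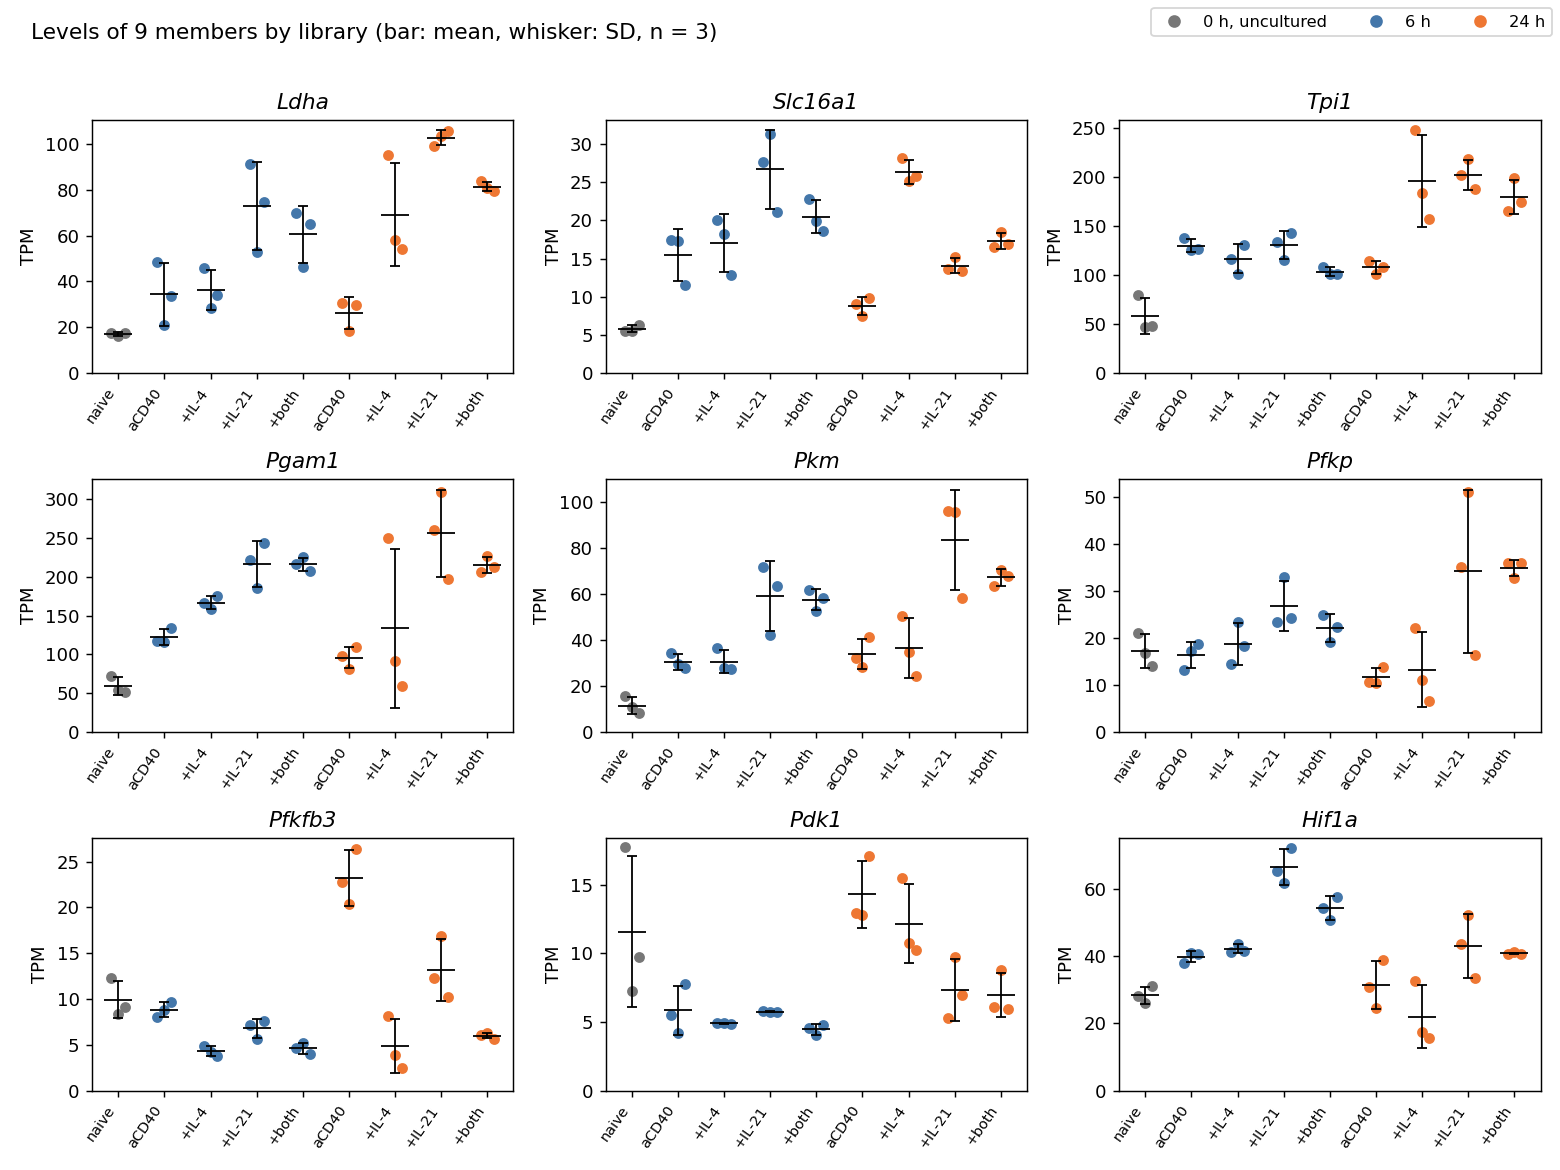
TPM of 9 members in each library (points), with the mean and SD of each group of 3, for naive cells (grey) and for anti-CD40 alone or with cytokines at 6 h (blue) and 24 h (orange). Ldha at 24 h lies at 18.4 to 30.4 TPM with anti-CD40 alone and at 54.3 to 106 TPM in the groups with a cytokine, and Pfkfb3 is highest with anti-CD40 alone at 24 h.

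IL-4 added to anti-CD40. At 6 h IL-4 lowered the pyruvate carrier subunit Mpc1 and the phosphofructokinase activator Pfkfb3. No member was called higher and these 2 lower, against 1.65% and 2.4% of all genes (4.04% in either direction). Mpc1 stood at 495, 508 and 501 TPM without and 248, 298 and 265 TPM with IL-4 (-0.89 ± 0.16, adjusted p = 0.00104, and 0.0792 after median-of-ratios rescaling). Pfkfb3 stood at 8.08, 8.76 and 9.72 TPM without and 4.90, 4.22 and 3.80 TPM with IL-4 (-0.89 ± 0.25, adjusted p = 0.0465), a call that was lost when any of the 6 libraries was left out. In both genes the groups did not overlap.

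At 24 h IL-4 raised Slc16a1, Ldha and Tpi1 and lowered Pfkfb3. Called were 4 rises and 4 falls among members, against 8.28% and 23.1% of all genes (31.4% in either direction), with a median of -0.06 over members and -0.31 over all genes. Slc16a1 stood at 9.04, 7.52 and 9.87 TPM with anti-CD40 alone and at 28.1, 25.2 and 25.8 TPM with IL-4 (1.48 ± 0.18, adjusted p = 2.71e-06). Ldha stood at 94.99, 58.2 and 54.3 TPM with IL-4 (1.35 ± 0.27, adjusted p = 0.000619), above all 3 libraries without it. Tpi1 stood at 248, 184 and 157 TPM with IL-4, again above all libraries without it (0.83 ± 0.17, adjusted p = 0.00105). Pfkfb3 fell from 22.8, 20.3 and 26.4 TPM to 8.15, 3.91 and 2.53 TPM (-2.15 ± 0.25, adjusted p = 1.39e-06). These 4 calls held under every alternative run.

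The other calls with IL-4 at 24 h were less firm. Pdhb rose by 0.48 ± 0.14, and Pgls fell from 10.6, 10.5 and 12.1 TPM to 5.94, 2.20 and 5.57 TPM (-1.19 ± 0.33, adjusted p = 0.00797), which was not called without replicate 2 of the IL-4 group (-0.84). Aldoc (-0.81 ± 0.31) and Hif1a (-0.55 ± 0.20) fell with overlapping groups. The count of 8 depended on replicate 1 of the IL-4 group, which stood apart: without it 4 were called higher and 10 lower, where 46.9% of all genes were called. Without replicate 2 or replicate 3, 5 were called in all, with 20.7% and 20.2% of all genes. B cell markers summed to 2552 to 5147 TPM with IL-4 and 5536 to 6727 TPM without, and the part of this was not tested. Median-of-ratios rescaling gave 11 higher and 2 lower, and shifted the all-gene median from -0.31 to 0.00. The share of all genes called in that fit is not given here, so these counts do not describe the members.

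IL-21 added to anti-CD40 and IL-4. At 6 h no member was called with limma, against 1.25% and 1.28% of all genes (2.54% in either direction), and 3 members had an unadjusted p below 0.05. Libraries with the same replicate number deviated together in this comparison. With the replicate number as a block, Ldha (0.73, adjusted p = 0.0375) and Pkm (0.90, adjusted p = 0.0237) were called higher, against an adjusted p of 0.225 and 0.0639 without it. Pkm stood at 36.4, 28.0 and 27.6 TPM without and 61.7, 52.8 and 58.1 TPM with IL-21, with no overlap.

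At 24 h in the presence of IL-4, IL-21 raised Pfkp and Hif1a, the calls that held under every alternative run. In all 8 members rose and 2 fell, against 21.8% and 2.39% of all genes (24.2% in either direction), with a median of 0.36 over members and 0.38 over all genes. Pfkp stood at 22.1, 11.0 and 6.55 TPM without and 35.9, 32.8 and 35.9 TPM with IL-21 (1.49 ± 0.34, adjusted p = 0.00370). Hif1a stood at 32.7, 17.6 and 15.6 TPM without and 40.8, 41.1 and 40.5 TPM with IL-21 (0.94 ± 0.20, adjusted p = 0.00265). The other rises were Taldo1, Pgam1, Pgd, Pkm, Gpi1 and Pdk3 (0.78 to 0.97), with overlapping groups in all but Pkm, and the falls Pdk1 (-0.72 ± 0.26) and Slc16a1 (-0.58 ± 0.18). These counts were the least stable of all: 15 higher and 1 lower without replicate 1 of the IL-4 group (46.4% of all genes called), 2 higher and 0 lower without replicate 2 or 3 (9.09% and 7.91% of all genes called), and 4 or 5 calls in all without any one of the IL-21 libraries. Median-of-ratios rescaling gave 2 higher and 7 lower, with 21.7% of all genes called and an all-gene median of -0.01 in place of 0.38. The change of this effect between 6 h and 24 h was called for 0 members with limma (all genes: 3.66% higher, 0.576% lower, 4.24% in either direction), with 6 members at an unadjusted p below 0.05, and for 10 without replicate 1 of the IL-4 group, where 28.1% of all genes were called. T cell markers summed to 1.25 to 3.64 TPM with IL-21 and 0.502 to 1.14 TPM without it at 24 h, and their part was not tested.

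Interaction of IL-21 and IL-4. Whether IL-21 acted differently in the presence of IL-4 was tested as the difference between both IL-21 effects. At 24 h it did for 3 members, Ldha, Slc16a1 and Tpi1, all with a smaller or opposite effect in the presence of IL-4. No member had a called difference in the other direction, against 3.33% and 2.48% of all genes (5.8% in either direction). At 6 h 0 members were called with limma (all genes: 0.148% higher, 0.263% lower, 0.412% in either direction), and 1 had an unadjusted p below 0.05.

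Ldha differed by 1.96 ± 0.27 with IL-21 in the absence of IL-4 and by 0.28 ± 0.27 in its presence, an interaction of -1.69 ± 0.38 (adjusted p = 0.00861). Its level was 26.2 ± 6.82 TPM (SD, n = 3) with anti-CD40 alone, 69.2 ± 22.4 with IL-4, 103 ± 3.23 with IL-21 and 81.4 ± 2.10 with both, so that each cytokine alone gave a higher level than anti-CD40 and the combination did not exceed IL-21 alone. Slc16a1 rose by 0.63 ± 0.18 with IL-21 in the absence of IL-4 and fell by 0.58 ± 0.18 in its presence, an interaction of -1.20 ± 0.26 (adjusted p = 0.00618). The 3 libraries with both cytokines stood at 16.5, 18.5 and 17.0 TPM, between the IL-4 libraries (28.1, 25.2 and 25.8 TPM) and the IL-21 libraries (13.7, 15.2 and 13.4 TPM), with no overlap. Tpi1 differed by 0.90 ± 0.17 in the absence of IL-4 and by -0.11 ± 0.17 in its presence, an interaction of -1.01 ± 0.25 (adjusted p = 0.0155). The 3 libraries with both cytokines stood at 165, 199 and 174 TPM, within the range of the IL-4 libraries.

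All 3 interactions kept their call under every alternative run, with adjusted p up to 0.0285 for Ldha, 0.0192 for Slc16a1 and 0.0464 for Tpi1. Without replicate 1 of the IL-4 group 7 were called, the same 3 in the negative direction and 4 in the positive, but so were 20.2% of all genes. For other members no such difference was detected: the interaction was 0.14 ± 0.48 for Pfkp, -0.33 ± 0.36 for Pkm, 0.17 ± 0.37 for Pdk1 and -0.18 ± 0.30 for Pdk3, and errors of this size do not show that the effects were alike. Pfkfb3, which IL-21 lowered in the absence of IL-4 (-0.79 ± 0.25) and which stood at 0.37 ± 0.25 in its presence, had an interaction of 1.17 ± 0.36 (adjusted p = 0.0565, and 0.0456 with the replicate number as a block).

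**Figure D4:**
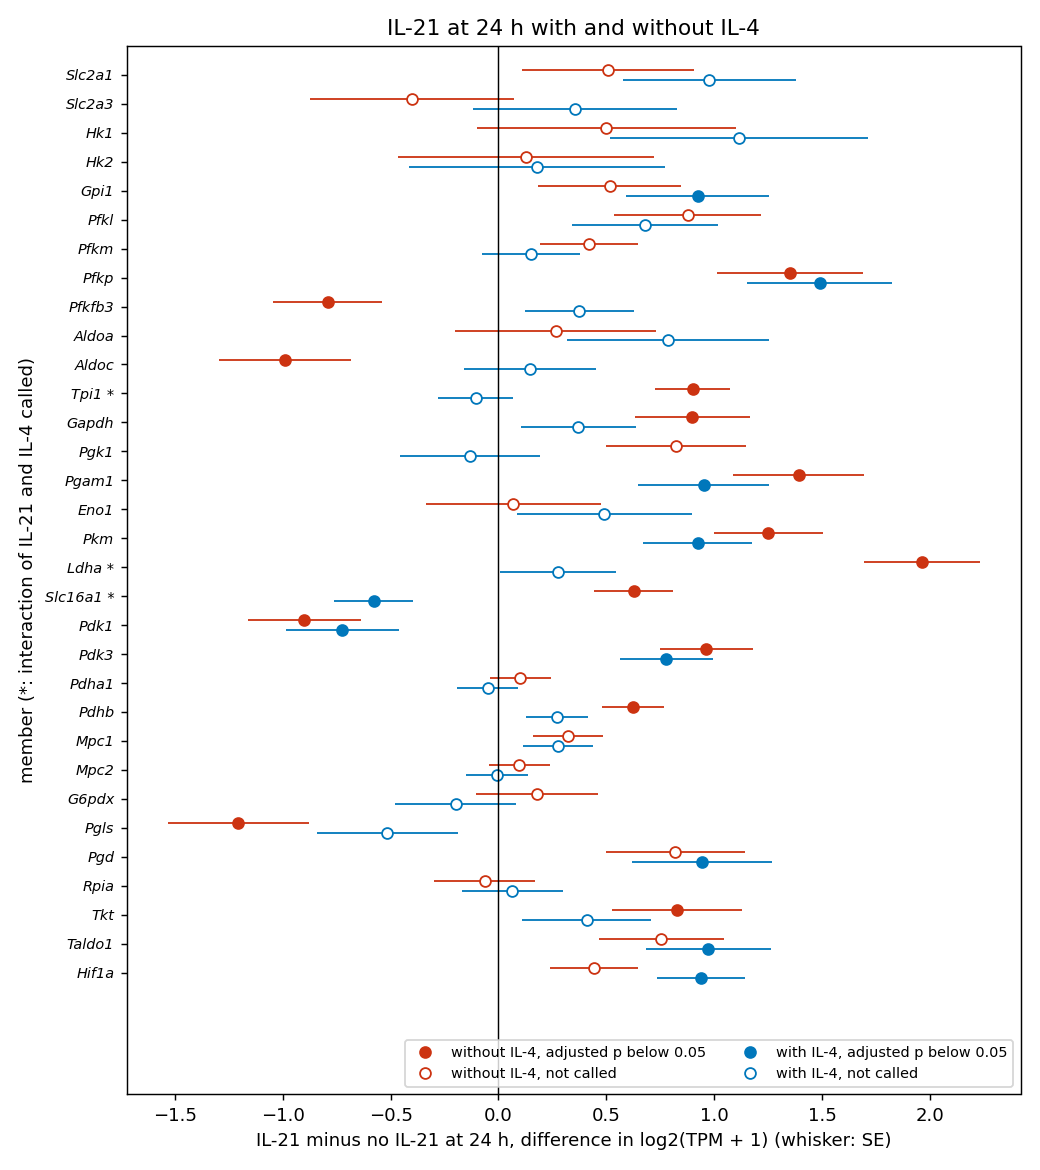
Difference in log2(TPM + 1) with IL-21 at 24 h (x axis, whiskers are SE) for each of the 32 tested members (y axis), in the absence (red) and presence (blue) of IL-4, filled where called. Ldha, Slc16a1 and Tpi1, marked with an asterisk, are the members whose 2 effects were called different.

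The remaining members passed the test in none of the comparisons made with limma without a replicate block. They were the glucose transporters Slc2a1 (3.44 to 22.9 TPM over the 27 libraries) and Slc2a3 (0.0797 to 5.04 TPM), the hexokinase Hk2 (0 to 5.78 TPM), the muscle-type phosphofructokinase Pfkm (0.305 to 3.85 TPM), the enolase Eno1 (6.65 to 32.3 TPM), Pgk1 without its copies, and Rpia (38.6 to 113 TPM), the isomerase that makes ribose 5-phosphate. Hk2 stood at 1.27, 2.03 and 1.59 TPM with anti-CD40 alone at 6 h and at 3.89, 4.57 and 5.78 TPM with IL-21, with no overlap (1.12 ± 0.59, adjusted p = 0.266). With the replicate number as a block in limma, Slc2a1 was called lower at 6 h than in naive cells (-1.003 ± 0.29, adjusted p = 0.0103). In that fit it was also called higher with IL-21 in the presence of IL-4 at 24 h (0.98 ± 0.29, adjusted p = 0.0179). Same-numbered libraries did not all deviate together in either comparison (correlations of -0.02 to 0.12 and -0.005 to 0.07), so little rests on these calls.

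Balance between paired genes. Where 2 members serve the same step, their ratio within a library does not depend on how the library was scaled, apart from the added 1 TPM. For 7 pairs the log2 ratio at 24 h was compared between libraries with and without IL-21, over 12 libraries, by a 2-sided exact permutation of the IL-21 labels within libraries with and without IL-4. The smallest p this design can give is 0.005, and p was adjusted over the 7 pairs.

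The kinases Pdk1 and Pdk3 gave the clearest shift. Their log2 ratio was -0.62, -0.23 and -0.35 with anti-CD40 alone and -1.04, -0.57 and -0.44 with IL-4, and lower in all 6 libraries with IL-21: -2.77, -1.94 and -2.07 without and -2.23, -1.96 and -2.37 with IL-4. The difference was -1.68 (exact permutation p = 0.005, adjusted p = 0.035), at -1.86 in the absence and -1.50 in the presence of IL-4. Leaving out any library kept it between -1.77 and -1.55. In naive cells the ratio was -0.19 ± 0.54 (SD, n = 3), and in the 4 groups at 6 h its mean lay between -1.87 and -1.61, so that the ratio at 24 h without IL-21 was nearer to that of naive cells.

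The ratio of Pfkp to the liver-type Pfkl was 0.64 higher with IL-21 (exact permutation p = 0.02, adjusted p = 0.035), and that of Aldoa to Aldoc 0.95 higher (p = 0.015, adjusted p = 0.035, exact permutation). The first call was lost without replicate 1 (0.58) or replicate 2 (0.67) of the IL-4 group and the second without replicate 2 (1.01). Slc2a1 to Slc2a3 was 0.76 higher (adjusted p = 0.049, exact permutation), but 0.70 with an adjusted p of 0.245 when 0.1 TPM was added in place of 1, and it was lost when any of 9 of the 12 libraries was left out. Hk2 to Hk1 differed by -0.65 (adjusted p = 0.163, exact permutation). The pairs Ldha to Ldhb (1.13, adjusted p = 0.035, lost without replicate 2 of the IL-4 group) and Slc16a3 to Slc16a1 (0.18, adjusted p = 0.46, both exact permutation) hold a member at or near 0 and follow the other one.

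**Figure D5:**
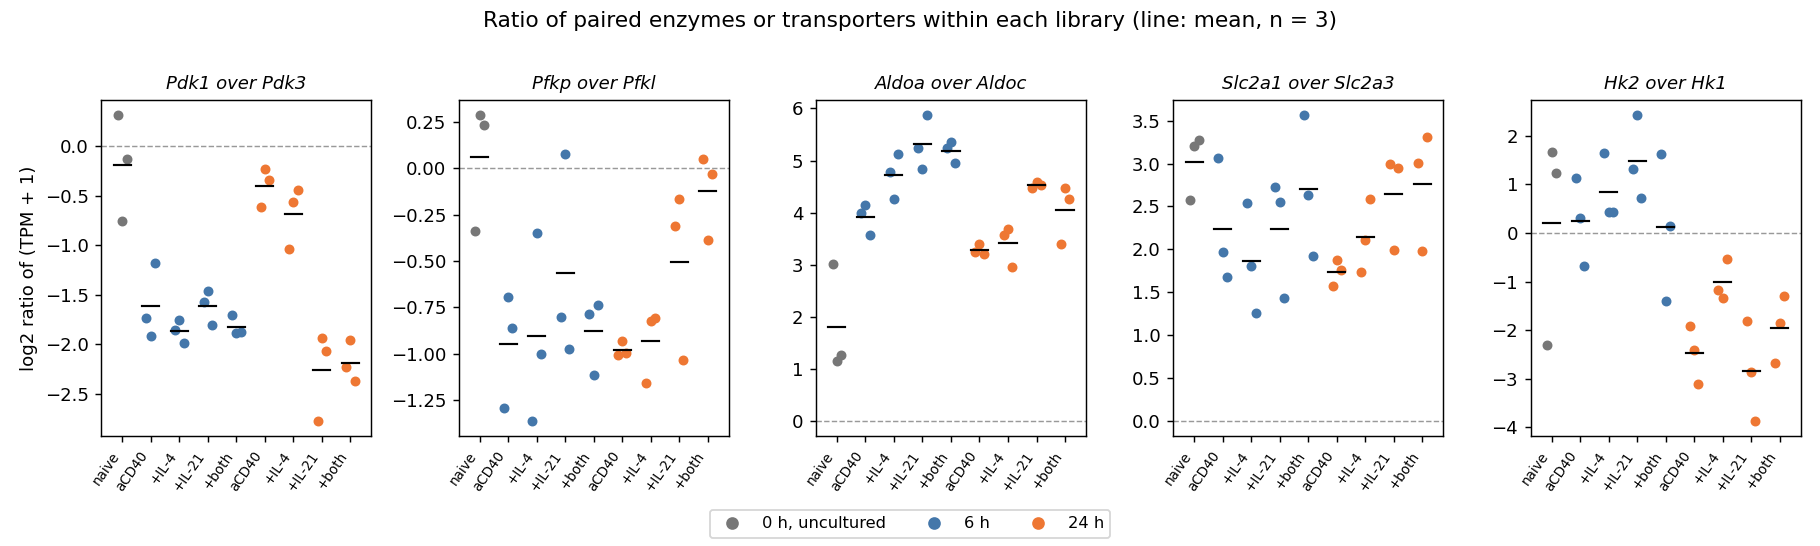
Log2 ratio of (TPM + 1) of 2 members within each library (points, line at the mean of 3) for 5 pairs, for naive cells (grey), 6 h (blue) and 24 h (orange). Pdk1 over Pdk3 lies under -1.9 in the 6 libraries with IL-21 at 24 h and above -1.1 in the 6 without.

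Other genes of the pathway. A fixed list of 61 further genes of the same pathways held 44 that were tested. Against naive cells 11 of the 44 rose and 4 fell at 6 h, and 12 rose and 2 fell at 24 h, where 29.9% and 26.8% of all genes were called. With IL-21, 3 rose and 3 fell at 6 h and 12 rose and 2 fell at 24 h (all genes: 12.1% and 24.2% called). In the presence of IL-4 the counts were 0 and 1 at 6 h and 10 and 1 at 24 h (2.54% and 24.2%). With IL-4 they were 3 and 0 at 6 h and 5 and 8 at 24 h (4.04% and 31.4%). The interaction at 24 h was called for 1 in the positive and 3 in the negative direction (5.8%). These counts, and the values of the genes named below, come from the fit to all 27 libraries only. How far they depend on replicate 1 of the IL-4 group at 24 h is not shown.

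Txnip, an arrestin-like protein that limits glucose uptake, fell at 24 h with IL-21 and with IL-4. It stood at 27.2, 24.4 and 33.7 TPM with anti-CD40 alone at 24 h, at 8.68, 14.3 and 5.55 TPM with IL-21 (-1.56 ± 0.28, adjusted p = 0.000321) and at 8.86, 4.92 and 5.34 TPM with IL-4 (-2.02 ± 0.28, adjusted p = 1.46e-05). With both cytokines it stood at 8.16, 8.35 and 9.56 TPM, and its interaction was 1.99 ± 0.40 (adjusted p = 0.00393). With anti-CD40 alone at 6 h Txnip was lower (-2.24 ± 0.28) than in naive cells, where it stood at 115, 64.8 and 67.3 TPM. Culture and stimulation cannot be told apart in that difference.

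Adpgk, a glucokinase that uses ADP, stood at 12.2, 10.4 and 15.9 TPM with anti-CD40 alone at 24 h and at 50.4, 62.9 and 41.0 TPM with IL-21 (1.92 ± 0.42, adjusted p = 0.00164), and rose also in the presence of IL-4 (1.57 ± 0.42). Slc2a6, a hexose transporter, stood at 19.8, 10.9 and 8.99 TPM with anti-CD40 alone at 6 h, at 118, 72.7 and 38.4 TPM with IL-4 (2.38 ± 0.42, adjusted p = 0.000682) and at 3.99, 3.09 and 1.93 TPM with IL-21 (-1.79 ± 0.42, adjusted p = 0.00572). IL-4 and IL-21 thus moved this transporter in opposite directions at 6 h. Prps1, which turns ribose 5-phosphate of the pentose phosphate pathway into the precursor of nucleotides, rose with IL-4 at 24 h (1.27 ± 0.15), with an interaction of -1.07 ± 0.21 (adjusted p = 0.00292).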

How the data were processed

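The authors deposited 1 table of TPM, a relative abundance scaled to transcript length and library total, for 27 libraries. It was made with Salmon 1.9.0 on the GRCm38/mm10 build, per the submitters' processing notes. The annotation release and the handling of reads that match several genes are not given in the sources used here. Of 35604 gene identifiers, 35254 were named with GENCODE M21. The members and lists were chosen with earlier results of these data known. Depth is unknown, because TPM keeps none.

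Values were taken as log2(TPM + 1), and a gene was tested if 3 or more libraries had 1 TPM or more. They were fitted with limma 3.58.1 in R 4.3.3, with 1 mean per group over all 27 libraries and a variance trend, and adjusted by Benjamini-Hochberg within each comparison. The script was tested on simulated data. Members called with a change of at least 2-fold, at most the 6 largest in a comparison, were given with every library; others given so were chosen after their values were seen. Of the further pathway genes, up to 3 called rises and 3 called falls of at least 2-fold and at least 5 TPM could be named. Copies are transcripts with at least 95% identity over at least 200 aligned bases. Alternatives were another pseudocount (0.1 TPM), no filter or one at 5 TPM, median-of-ratios rescaling, rescaling without mitochondrial, ribosomal protein and pseudogene transcripts, no variance trend, a replicate block, and left-out libraries. Adding copies to the members was chosen after seeing the data.

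The labels number the replicates 1 to 3 in every group. Same-numbered libraries deviated together, with each pair's correlation over 0.1, in 3 comparisons at 6 h: IL-21 (0.186 to 0.335), IL-21 in the presence of IL-4 (0.183 to 0.377) and IL-4 (0.107 to 0.382).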

Additional observations from a re-analysis of the deposited data

Results flagged for a closer look

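Effects of IL-21 at 24 h differed with IL-4 for 3 members by the interaction term of limma. The difference was -1.69 for Ldha, -1.20 for Slc16a1 and -1.01 for Tpi1 on the log2 scale, with adjusted p of 0.00861, 0.00618 and 0.0155. The effect of IL-21 in the absence of IL-4 was also larger at 24 h than at 6 h for Tpi1, by 0.90 (limma, adjusted p = 0.0374). This call was not stable, since it was lost without any of 10 of the 12 libraries. Tpi1 was the only member called in that comparison, in which 4.44% of all genes were called (3.1% higher).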

How the results depend on the processing

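No called difference of a member changed direction under any alternative run. Over all comparisons 77 differences of members were called, and 36 of them kept their call throughout. Calls were lost in 134 of 480 refits without 1 library and in 42 of 690 refits under other alternatives. Counts of called members moved more, by over 1.5 times in 58 of 219 cases, and the cause was not tested. The share of all genes called moved too, so a count by itself does not describe the members. Here and below, counts given without that share show only how far the counts moved. Median-of-ratios rescaling gave 15 for 24 h against 6 h, 1 for IL-21 with IL-4 at 6 h, 1 for IL-4 at 6 h, 13 for IL-4 at 24 h, 5 for the interaction at 24 h, and 3 each for the changes of the IL-21 effect without and with IL-4. With it, 30.9% of all genes were called for 24 h against 6 h and 4.53% for IL-21 with IL-4 at 6 h. Rescaling without mitochondrial, ribosomal protein and pseudogene transcripts gave 11 for 24 h against 6 h (28.7% of all genes), 2 for IL-21 with IL-4 at 6 h (3.71% of all genes) and 1 for the change with IL-4. Leaving out naive replicate 1 and replicate 1 of the IL-4 group at 24 h gave 18 for naive against 24 h, 13 for 24 h against 6 h, 2 and 17 for IL-21 with IL-4 at 6 h and 24 h, 16 for IL-4 at 24 h, 8 for the interaction at 24 h, and 4 and 15 for the changes without and with IL-4. Of all genes, 38.6% were then called for naive against 24 h and 33.2% for 24 h against 6 h. For IL-21 with IL-4 the shares were 4.67% at 6 h and 49.0% at 24 h. With no filter the counts were 6 for IL-21 with IL-4 at 24 h (8.32% of all genes), 1 for IL-4 at 6 h and 0 for the change without IL-4, which was 2 with a pseudocount of 0.1 TPM and 0 without the variance trend.

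With the replicate block the count was 2 for IL-21 with IL-4 at 6 h and 1 for the change with IL-4. It changed no call of a member in the other 2 comparisons at 6 h in which the numbers pair the libraries. At 24 h the libraries share only a number, and the block moved the count for naive against 24 h from 10 to 15 and called the interaction of Pfkfb3 (adjusted p = 0.0456). For the ratios of paired genes, the block left the values at -1.68 (Pdk1 over Pdk3), 0.95 (Aldoa over Aldoc), 1.13 (Ldha over Ldhb), 0.64 (Pfkp over Pfkl) and 0.76 (Slc2a1 over Slc2a3), none of them called. Fewer arrangements are possible with the block. In addition, some same-numbered libraries moved the other way for each of these ratios but Pdk1 over Pdk3. Slc2a1 over Slc2a3 was 0.70 with a pseudocount of 0.1 TPM and not called.

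Leaving out 1 library at a time gave 9 to 16 called members for naive against 6 h, 8 to 15 for naive against 24 h, 6 to 8 for 24 h against 6 h, 2 to 5 for IL-21 at 6 h, 10 to 15 for IL-21 at 24 h, 0 to 0 and 2 to 16 for IL-21 with IL-4 at 6 h and 24 h, 1 to 1 and 5 to 14 for IL-4, 0 to 0 and 3 to 7 for the interaction, and 0 to 1 and 0 to 10 for the changes without and with IL-4. The share of all genes called moved as well. For IL-21 with IL-4 at 24 h it was 46.4% where 16 members were called and 7.91% without replicate 3 of the IL-4 group, where 2 were. The ratios of paired genes, with 1 library left out, ranged from 0.63 to 0.96 (Slc2a1 over Slc2a3), -0.91 to -0.40 (Hk2 over Hk1), 0.56 to 0.77 (Pfkp over Pfkl), 0.83 to 1.11 (Aldoa over Aldoc), 1.01 to 1.25 (Ldha over Ldhb), 0.10 to 0.24 (Slc16a3 over Slc16a1) and -1.77 to -1.55 (Pdk1 over Pdk3). Without depth, no counting error can be given for members near 0, such as G6pdx and Pgk1.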
